A study of Mus musculus with 34 samples.

Results

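The genes described here are 27 mouse genes that make cholesterol or control its making. They were chosen by name from the pathway, with earlier results of these data known. Each was read from the array probe with the brightest lung signal among the probes whose RefSeq accession maps to it, out of 20660 named genes on the array. All 27 were measured well above background on 34 of 34 arrays, and all entered the test among 29316 features.

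The mice were C57BL/6 females aged 5 to 7 weeks, and their lungs were taken 28 days after 40 µl had been instilled once into the windpipe. Each exposed mouse received 18 or 54 µg of a carbon nanotube (NRCWE-043, NRCWE-044 or NRCWE-045), and the series asks how strongly such materials perturb lung pathways. RNA of random lung sections was labelled with Cy5 and hybridised against Cy3-labelled reference RNA of 11 mouse cell lines, 1 array per lung sample. There were 5 control arrays at 0 µg. The title of control replicate 3 names NRCWE-043 at 0 µg while its treatment field says Control, and it was kept as a control. NRCWE-043 had 5 arrays at 18 µg and 5 at 54 µg, NRCWE-044 had 6 and 5, and NRCWE-045 had 3 and 5. What the control mice were given is not stated in the labels, and the p-values measure the spread between these samples. The 11 alveolar type 2 cell markers were well above background on all 34 arrays, with Sftpc, the gene of surfactant protein C, at a log2 ratio over the reference of 7.09 to 8.93.

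Cells keep their cholesterol level through a sensor in the endoplasmic reticulum. SCAP escorts the SREBP transcription factors to the Golgi when sterols are scarce, and the INSIG proteins hold SCAP back when sterols are plentiful. Cleaved SREBP-2, made by Srebf2, then switches on the enzymes that lead from acetyl-CoA through mevalonate, isoprenoids, squalene and lanosterol to cholesterol. In the lung the pathway matters to alveolar type 2 cells, which make surfactant lipid, and to macrophages, which clear it.

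Promoters are shown for 5 members on which the results turn. They are the SREBP targets Insig1, Hmgcs1 and Cyp51, the transcription factor gene Srebf2, and Mylip, which sterols control by another route. Each is the 250 bases before the gene's start in RefSeq (build GRCm38.p6), 5′ to 3′ on the gene's strand. Capitals mark CCAAT, the letters bound by NF-Y, a partner of SREBP, on either strand, and TCACNCCAC, a form of the sterol regulatory element, on either strand.
Insig1, chr5:28071162-28071411, plus strand: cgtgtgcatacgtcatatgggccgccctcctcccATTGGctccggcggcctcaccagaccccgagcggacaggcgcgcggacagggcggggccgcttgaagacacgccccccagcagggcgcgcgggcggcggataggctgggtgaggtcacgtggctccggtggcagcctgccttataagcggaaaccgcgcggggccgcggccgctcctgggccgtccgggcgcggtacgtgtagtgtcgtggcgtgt
Hmgcs1, chr13:119690101-119690350, plus strand: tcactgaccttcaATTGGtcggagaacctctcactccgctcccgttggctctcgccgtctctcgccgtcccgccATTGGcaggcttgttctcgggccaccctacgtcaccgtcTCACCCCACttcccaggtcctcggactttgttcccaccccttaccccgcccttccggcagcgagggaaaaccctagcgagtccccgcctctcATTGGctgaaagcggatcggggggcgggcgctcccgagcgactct
Cyp51, chr5:4104698-4104947, minus strand: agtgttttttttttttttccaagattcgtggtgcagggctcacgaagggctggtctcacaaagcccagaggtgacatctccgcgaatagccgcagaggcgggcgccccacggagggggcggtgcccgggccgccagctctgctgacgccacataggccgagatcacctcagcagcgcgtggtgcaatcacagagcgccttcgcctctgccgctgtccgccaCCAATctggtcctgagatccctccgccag
Srebf2, chr15:82147019-82147268, plus strand: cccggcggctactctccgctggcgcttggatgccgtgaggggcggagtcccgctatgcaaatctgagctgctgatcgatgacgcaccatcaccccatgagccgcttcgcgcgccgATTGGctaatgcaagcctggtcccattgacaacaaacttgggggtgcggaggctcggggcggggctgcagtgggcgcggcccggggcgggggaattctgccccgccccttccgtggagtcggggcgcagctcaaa
Mylip, chr13:45389492-45389741, plus strand: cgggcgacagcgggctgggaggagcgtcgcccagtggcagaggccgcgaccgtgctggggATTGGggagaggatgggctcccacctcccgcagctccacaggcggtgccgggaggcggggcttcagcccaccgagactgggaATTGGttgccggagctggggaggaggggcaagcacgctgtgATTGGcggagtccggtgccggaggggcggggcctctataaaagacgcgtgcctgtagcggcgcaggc

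Promoters of 23 of the 27 members were in the table, 31 in all, since some genes have several starts. CCAAT on either strand was found in 71.0% of them and in 33.8% of all 32851 promoters of that length. GGGCGG, the letters of an Sp1 box, was in 77.4% of them and in 32.7% of all, and CACGTG, an E-box that SREBPs can also bind, in 16.1% and 6.02%. TCACNCCAC was in 1 of the 31, that of Hmgcs1, and in 1.05% of all. A stricter form of the same element, with no open letter, was in 0 of 31 and in 0.0731% of all. A match is a description of letters, and no match says only that those letters are not in this window.

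No member passed the test (limma, Benjamini-Hochberg adjusted p under 0.05 over all features) in any of the 18 contrasts fitted. Over all features, 0% were called in each of the 8 comparisons with control, and 0% in each of the 4 comparisons of doses. Between materials, all features gave 0.0102% called for NRCWE-043 against NRCWE-044 at 18 µg, 0.43% for NRCWE-043 against NRCWE-045 at 18 µg, 0.00341% for that pair at 54 µg and 0% for the other 3 pairs. What the members had was small differences, more of them above control than below. Averaged over the 3 materials, 22 of the 27 had a higher mean at 54 µg than in control lungs, where 49.3% of all features did, and the median member difference was 0.07 on the log2 scale, against -0.0017 over all features. At 18 µg 22 of 27 were above control, where 50.3% of all features were, with a median of 0.05. Both averages use the same 5 control lungs. Single arrays moved these medians: the 54 µg one was 0.04 without NRCWE-045 replicate 4 and 0.11 without control replicate 4. The 18 µg one was 0.025 without NRCWE-045 replicate 2, 0.03 without control replicate 1, 0.04 without NRCWE-043 replicate 3, and 0.09 without control replicate 4 or NRCWE-045 replicate 3.

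By material, the median member difference from control was 0.06 at 18 µg and 0.06 at 54 µg of NRCWE-043, with 18 and 19 of 27 members above control (46.4% and 46.8% of all features). For NRCWE-044 it was -0.03 at 18 µg, with 7 of 27 above control (50.4% of all features), and 0.10 at 54 µg, with 20 of 27 above (50.1%). For NRCWE-045 it was 0.11 at 18 µg, with 22 of 27 above (50.7%), and 0.14 at 54 µg, with 21 of 27 above (50.5%). The NRCWE-044 lungs at 18 µg were thus the only group whose median lay below control in this fit. In all 6 of them the mean of heart muscle markers, -2.52 to -2.03, lay below every control (-1.18 to 1.02), and the fat marker mean averaged -0.68. Groups with member medians above control had low values too. The heart marker median was -2.32 at 54 µg of NRCWE-045, -1.82 at 54 µg of NRCWE-044 and -1.52 at 18 µg of NRCWE-043. It was -0.41 at 18 µg of NRCWE-045 and 0.52 at 54 µg of NRCWE-043. The fat marker mean averaged -0.75 at 18 µg of NRCWE-043. The part of heart and fat RNA in the member values was not tested.

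These medians kept their sign with any single array left out, but not their size. For NRCWE-043 at 18 µg the median was 0.04 without replicate 3, and 0.10 to 0.11 without replicate 4 or 5 or control replicate 2 or 4. At 54 µg it was 0.03 without control replicate 1 and 0.11 without replicate 4. For NRCWE-044 at 18 µg it was -0.05 without replicate 3 or control replicate 1 or 2, and -0.02 without control replicate 3 or 4, and at 54 µg it was 0.16 without replicate 3. For NRCWE-045 at 18 µg it was 0.18 without replicate 1 or 3, and 0.19 without control replicate 4.

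The mean of the 27 genes on an array, relative to the control mean, was -0.11, -0.06, 0.04, 0.13 and 0.02 in the 5 control lungs. It was 0.04, 0.12, 0.28, 0.01 and 0.02 at 18 µg of NRCWE-043, and 0.21, 0.04, 0.04, 0.09 and 0.05 at 54 µg. In NRCWE-044 lungs it ran from -0.11 over a median of -0.04 to 0.06 at 18 µg. Every one of these groups overlapped the controls. At 54 µg of NRCWE-044 the values were 0.05, 0.13, -0.04, 0.20 and 0.20, and 3 of the 5 lay above every control. They were 0.12, 0.21 and 0.09 at 18 µg of NRCWE-045, and 0.17, 0.02, 0.06, 0.45 and 0.04 at 54 µg. The fourth lung of that last group stood far above the others, and without it the group's median member difference was 0.01, with 16 of 27 above control; without control replicate 2 it was 0.09.

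**Figure D1:**
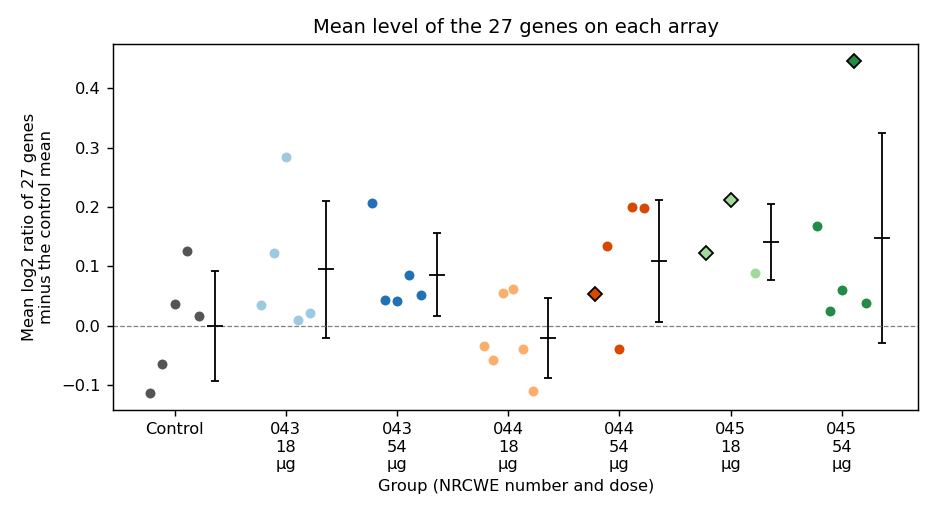
Mean log2 ratio of the 27 genes on each array (vertical axis, log2 units, control mean set to 0) by group (horizontal axis, NRCWE number and dose). Points are arrays, black bars the group mean ± SD, and outlined diamonds the 4 arrays with fat markers above every control; the highest point, at 0.45, is replicate 4 of NRCWE-045 at 54 µg, and every group overlaps the controls, which run from -0.11 to 0.13.

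RNA of neighbouring tissue was present in some lungs, and in bulk tissue fewer cells of a type and less RNA per cell cannot be told apart. The mean of 6 fat cell markers, relative to control, ran from -1.15 to 1.05 in controls and reached 3.44 in replicate 1 of NRCWE-044 at 54 µg, 2.58 and 1.45 in replicates 1 and 2 of NRCWE-045 at 18 µg, and 2.51 in replicate 4 of NRCWE-045 at 54 µg. In that last array the mean of 5 heart muscle markers was 2.64, in replicate 1 of NRCWE-044 at 54 µg it was 2.59, and in replicate 2 of NRCWE-045 at 18 µg it was 1.52, against -1.18 to 1.02 in controls. The mean of 8 liver markers was -0.08 to 0.15 in controls, and all 3 lungs at 18 µg of NRCWE-045 lay above that. It was 4.52 in replicate 2, 0.86 in replicate 1 and 0.53 in replicate 3, the only array of that group not high in fat markers. It was 1.05 in replicate 1 of NRCWE-044 at 54 µg. At 54 µg of NRCWE-045 it reached 1.81, in an array not high in fat markers. The fat marker detected least often, Lep, was well above background on 9 arrays, and its log2 ratio ran only from -0.06 to 0.37. Cidec was well above background on all 34, with a control mean of 4.00, and Adipoq ran from -0.235 to 6.36. These 4 arrays had member means of 0.05, 0.12, 0.21 and 0.45. Without them the 54 µg average kept 20 of 27 members above control with a median of 0.05, and the NRCWE-045 comparison at 18 µg rested on 1 array, taken to vary like the other groups, with 18 of 27 above and a median of 0.12. The part of fat, heart and liver RNA in the member values was otherwise not tested.

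Slide was also scan day, and the controls sat on 4 of the 6 slides. On slide 6 all 6 exposed lungs had a higher member mean than the 2 controls beside them, by 0.05 to 0.30. On slide 5 all 4 differed from its single control by -0.17 to -0.07. Differences on slide 2 were 0.04, 0.18 and 0.02. On slide 4 they ran from -0.095 to 0.25 against its single control, replicate 3, whose title names NRCWE-043. The direction against control therefore did not hold within every slide.

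The dose comparison needs no control lung, and its largest median was that of NRCWE-044. Between 54 and 18 µg of NRCWE-044, 21 of 27 members were higher at the higher dose, where 49.7% of all features were, with a median difference of 0.16. The member mean was higher at 54 µg on each of the 4 slides that held both doses, by 0.15, 0.14, 0.19 and 0.09. Leaving out single arrays gave medians from 0.14 to 0.19. For NRCWE-043 the median was 0.0001 with 14 of 27 higher (50.8% of all features), and for NRCWE-045 it was -0.0071 with 11 of 27 higher (48.8%). At an unadjusted p under 0.05 (limma), 2 members were higher at 54 than at 18 µg of NRCWE-044, Insig1 and Sqle, where 2.89% of all features were, and 0 were lower (2.35%). Without the 4 arrays high in fat markers 7 were higher (2.52%), and with array weights 6 (3.92%). With slide as a fixed block 3 were higher (3.88%) and 2 lower (3.13%). With that block and without the 4 arrays, 5 were higher (4.21%) and 1 lower (2.81%). Without background correction 1 was higher (2.96%), as with the scanner's processed signals (2.18%). In the fit of all arrays the counts for NRCWE-043 were 1, Ggps1 (1.61%), and 0 (1.52%), and for NRCWE-045 0 (0.798%) and 0 (1.56%). Averaged over materials they were 1, Insig1 (1.85%), and 0 (1.87%). The difference between materials in this dose step was not tested.

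**Figure D2:**
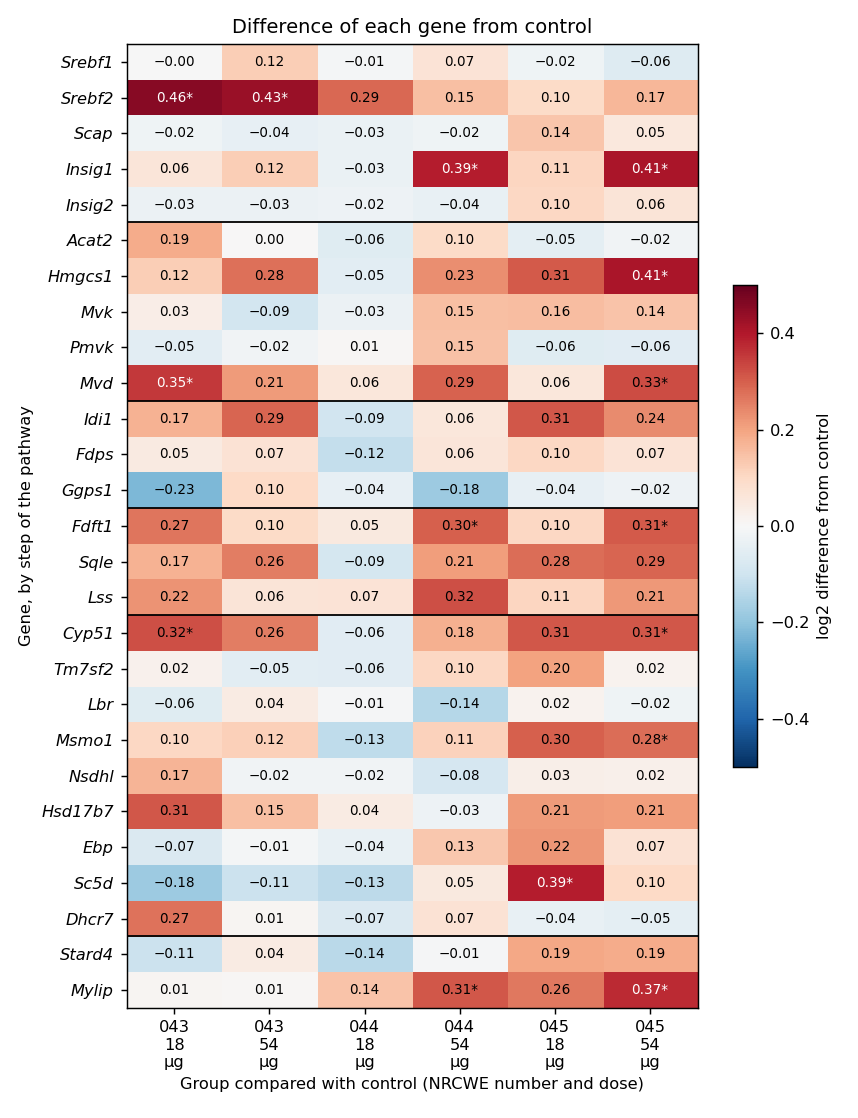
Log2 difference from control of each of the 27 genes (rows, ordered by step of the pathway, lines between steps) in the 6 groups (columns, NRCWE number and dose); red is higher, blue lower. An asterisk marks an unadjusted limma p under 0.05; no cell passes after adjustment, and the largest value is 0.46, Srebf2 at 18 µg of NRCWE-043.

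Among the sensing and transcription genes, Srebf2 and Insig1 had the largest differences. Srebf2, the gene of the main sterol-regulated transcription factor, was above the control mean in 6 of the 6 comparisons, by 0.10 to 0.46 on the log2 scale. Its log2 ratio was -1.10, -1.19, -0.68, -0.99 and -0.69 in control lungs. It was -0.94, -0.25, -0.24, -0.61 and -0.34 at 18 µg of NRCWE-043, where 4 of 5 lungs lay above every control. With 54 µg of that material it was -0.70, -0.10, -0.75, -0.83 and -0.11, where 2 of 5 did. The groups overlapped at both doses. The mean of 10 clock genes tested, which follow the time of day, was low with this material. It was -0.45 ± 0.41 (SD, n = 5) at 18 µg and -0.64 ± 0.37 (n = 5) at 54 µg. Controls had 0 ± 0.43 (n = 5), and the other groups had means of -0.23 to 0.24. The part of the clock genes in the Srebf2 values was not tested.

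The difference from control was 0.46 ± 0.15 (SE) at 18 µg and 0.43 ± 0.15 at 54 µg of NRCWE-043 in limma, with unadjusted p of 0.00489 and 0.00714 and adjusted p of 0.98 and 0.703. With slide as a block the values were 0.34 ± 0.08 and 0.39 ± 0.08, and the adjusted p at 54 µg was 0.0909, the lowest over the alternatives planned for it, which ran up to 0.99. With slide as a block and the 4 arrays high in fat markers left out, a fit chosen after seeing the data, Srebf2 at 54 µg of NRCWE-043 was 0.41 ± 0.08 with an adjusted p of 0.0476. That was the only fit run, among those with or without slide and with any array left out, in which a member passed the threshold. Within slides, the NRCWE-043 lungs of both doses were above the control beside them by 0.48 on slide 4, 0.31 on slide 5 and 0.33 on slide 6. A second Srebf2 probe followed the first with r = 0.82 over 34 arrays and gave 0.19 ± 0.13 at 54 µg averaged over materials, where the first gave 0.25 ± 0.12.

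In the other materials the mean difference of Srebf2 from control was smaller, though 4 of 6 lungs at 18 µg of NRCWE-044 and 2 of 5 at 54 µg of NRCWE-045 lay above every control. Its values ran from -0.88 over a median of -0.58 to -0.54 at 18 µg of NRCWE-044, and were -1.04, -0.40, -0.79, -0.93 and -0.75 at 54 µg. They were -1.03, -0.61 and -0.86 at 18 µg of NRCWE-045, and -0.89, -0.59, -0.94, -0.84 and -0.56 at 54 µg. Between materials, Srebf2 was higher at 18 µg of NRCWE-043 than of NRCWE-045 by 0.36 ± 0.17 (limma, unadjusted p = 0.0474, adjusted p = 0.454).

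Insig1, whose protein retains SCAP in the endoplasmic reticulum and whose gene is itself an SREBP target, had its largest differences at the higher dose. Its log2 ratio in control lungs was -0.48, -0.07, -0.66, -0.41 and -0.43. With 54 µg of NRCWE-044 it was 0.33, -0.20, -0.46, -0.02 and 0.26, and at 54 µg of NRCWE-045 it was 0.14, -0.22, -0.25, 0.36 and -0.04. In each of these groups 3 of 5 lungs lay above every control. In the 54 µg lungs of NRCWE-043 it was 0.22, -0.10, -0.59, -0.50 and -0.46, and only replicate 1 lay above every control. At 18 µg it was -0.28, -0.30, -0.23, -0.40 and -0.53 for NRCWE-043, and 0.03, -0.36 and -0.57 for NRCWE-045. For NRCWE-044 at 18 µg it ran from -0.65 over a median of -0.45 to -0.22. The 18 µg lungs thus stayed within the control range apart from 1 NRCWE-045 lung, an array high in fat markers.

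The Insig1 difference from control was 0.31 ± 0.13 averaged over materials at 54 µg and 0.05 ± 0.13 at 18 µg, and the step from 18 to 54 µg was 0.26 ± 0.09 (limma, unadjusted p = 0.00809). None passed adjustment, with adjusted p of 0.806 at 54 µg and 1 for the dose step. Within NRCWE-044 the step was 0.43 ± 0.15. With slide as a block the step averaged over materials was 0.26 ± 0.08, and without the 4 arrays high in fat markers it was 0.29 ± 0.11. Within slides, the 54 µg lungs were above the control beside them by 0.54, 0.49 and 0.51 on slides 2, 4 and 6, and at -0.02 on slide 5.

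The other sensing genes gave values near control. Averaged over materials at 54 µg, Scap, which escorts the SREBPs, was at -0.0020 ± 0.07, and Insig2, the INSIG gene that does not depend on SREBP, at -0.0006 ± 0.08. Srebf1, whose product SREBP-1 mainly drives fatty acid synthesis, was at 0.04 ± 0.12. Each of these 3 differences was smaller than its standard error.

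**Figure D3:**
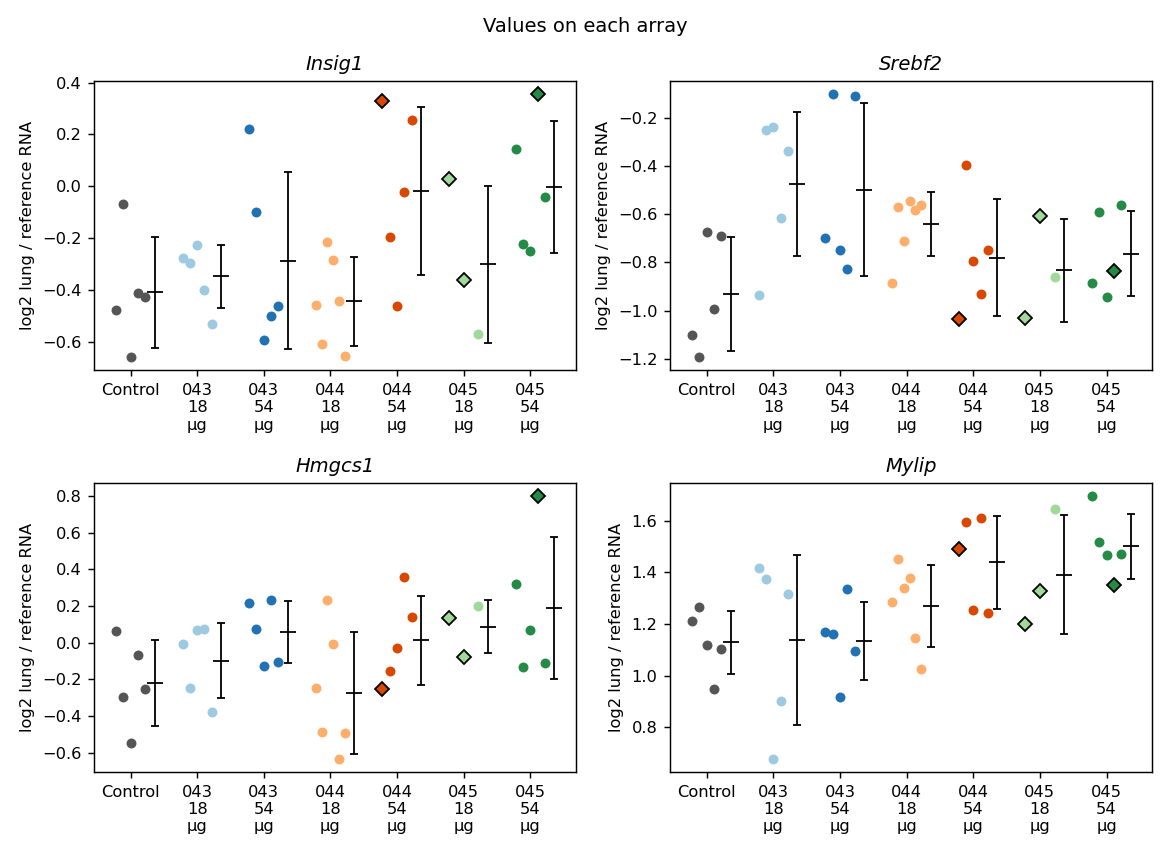
Log2 ratio of lung over reference RNA (vertical axes) for Insig1, Srebf2, Hmgcs1 and Mylip on each array, by group (horizontal axes, NRCWE number and dose). Points are arrays, black bars the group mean ± SD, and outlined diamonds the 4 arrays high in fat markers; Mylip at 54 µg of NRCWE-045, from 1.35 to 1.70, lies wholly above the controls, and Srebf2 reaches -0.10 in NRCWE-043 lungs.

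Of the early enzymes, from acetyl-CoA to mevalonate units, all 5 were above control at 54 µg averaged over materials, and 2 of them had an unadjusted p under 0.05, where 2.86% of all features did so in that direction. Hmgcs1, the cytosolic HMG-CoA synthase, had log2 ratios of 0.07, -0.29, -0.55, -0.07 and -0.25 in control lungs. At 54 µg it was 0.22, 0.07, -0.13, 0.23 and -0.11 with NRCWE-043, -0.25, -0.15, -0.03, 0.36 and 0.14 with NRCWE-044, and 0.32, -0.13, 0.07, 0.80 and -0.11 with NRCWE-045. In all, 8 of these 15 lungs lay above every control. The difference was 0.31 ± 0.13 (limma, unadjusted p = 0.0277, adjusted p = 0.827), with 0.12 ± 0.14 at 18 µg. Leaving out single arrays gave 0.22 to 0.38.

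Mvd, which makes isopentenyl diphosphate from mevalonate diphosphate, was 0.28 ± 0.12 above control at 54 µg (unadjusted p = 0.0287, adjusted p = 0.833) and 0.35 ± 0.15 at 18 µg of NRCWE-043. Replicate 3 of NRCWE-045 at 54 µg had no Mvd value, and the fit dropped it. The mevalonate kinase Mvk was at 0.07 ± 0.09 and the thiolase Acat2 at 0.03 ± 0.09. Phosphomevalonate kinase, Pmvk, was at 0.02 ± 0.17 on the brighter probe and -0.11 ± 0.16 on a second one that followed it with r = 0.94, so its sign was not settled. At 54 µg the Mvk difference of NRCWE-043 from NRCWE-044 was -0.25 ± 0.11 with no overlap of the lungs, as for 0.491% of all features, and the limma adjusted p was 0.996.

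Of the 3 isoprenoid genes, 2 were above control at 54 µg. Idi1, the isomerase of isopentenyl diphosphate, was at 0.20 ± 0.18 at 54 µg, Fdps, which makes farnesyl diphosphate, at 0.07 ± 0.11, and Ggps1, which extends it for protein prenylation, at -0.03 ± 0.11. Without replicate 4 of NRCWE-045 at 54 µg the Idi1 difference was 0.12. Idi1 was among 3 members whose 3 lungs at 18 µg of NRCWE-045 all lay above every control, with Cyp51 and Sc5d, where 3.18% of all features did. Those groups hold 3 and 5 arrays, and 2 of the 3 are arrays high in fat markers. With the 4 arrays left out and slide as a block, Idi1 was at -0.14 ± 0.29 and Sc5d at -0.20 ± 0.15 in that comparison, the opposite of 0.31 and 0.39 in the fit of all arrays.

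The squalene and lanosterol genes were all 3 above control at 54 µg. Fdft1, squalene synthase, was at 0.23 ± 0.11 (unadjusted p = 0.0367, adjusted p = 0.85), Sqle, squalene epoxidase, at 0.25 ± 0.12 and Lss, lanosterol synthase, at 0.20 ± 0.14. The Lss difference was 0.05 without control replicate 1 and 0.32 without control replicate 3. Fdft1 in control lungs was -1.05, -0.84, -0.62, -0.13 and -0.98, and the highest control exceeded all 15 lungs at 54 µg. Without that control, replicate 4, the Fdft1 difference was 0.38, and without control replicate 1 it was 0.15. A second Fdft1 probe, well above background on 5 arrays only, was at -0.0006 ± 0.07. Sqle was higher at 54 than at 18 µg of NRCWE-044 by 0.30 ± 0.15 (limma, unadjusted p = 0.0493, adjusted p = 0.953). Fdft1 had no overlap between these doses, at 0.25 ± 0.13, as 0.341% of all features did.

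Of the 9 genes from lanosterol to cholesterol, 7 were above control at 54 µg. Cyp51, which removes the first methyl group from lanosterol, was at 0.25 ± 0.11 (unadjusted p = 0.0369, adjusted p = 0.851). It was -1.55, -1.68, -1.32, -1.27 and -1.45 in control lungs, and 10 of the 15 lungs at 54 µg lay above all of these. Msmo1, a sterol methyl oxidase, was at 0.17 ± 0.11. The other 7 lay closer to 0, with Hsd17b7 at 0.11 ± 0.14, Ebp at 0.07 ± 0.09, Tm7sf2 at 0.02 ± 0.13, Sc5d at 0.01 ± 0.13, Dhcr7 at 0.01 ± 0.15, Nsdhl at -0.03 ± 0.14 and Lbr at -0.04 ± 0.08. Second, dimmer probes had the other sign at 54 µg for Nsdhl, at 0.07 ± 0.08 (r = 0.07 with the first), and Lbr, at 0.0016 ± 0.09 (r = 0.16). So did those of Insig2 (0.09 ± 0.18, r = 0.37) and Ggps1 (0.02 ± 0.07, r = 0.515). Those of Hsd17b7, Tm7sf2, Mvk and Stard4 kept the sign, with r of 0.38, 0.52, 0.29 and 0.02. Differences between steps of the pathway were not tested.

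**Figure D4:**
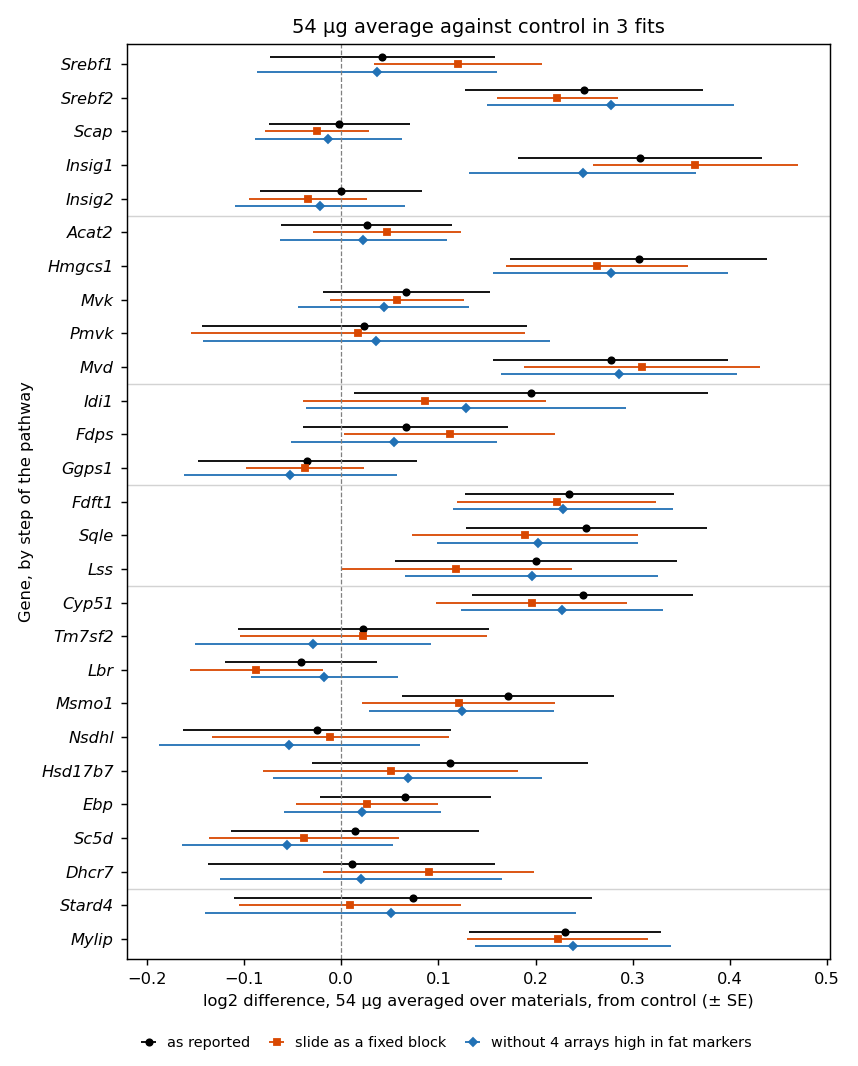
Log2 difference of the 54 µg average from control (horizontal axis) for each gene (vertical axis, by step of the pathway), with its standard error, in 3 fits of limma. Black circles are the fit of all arrays, orange squares add slide as a block, and blue diamonds leave out the 4 arrays high in fat markers; Insig1, Hmgcs1, Mvd, Cyp51, Srebf2 and Mylip keep values between 0.20 and 0.36 in all 3 fits.

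Mylip is a ubiquitin ligase that marks lipoprotein receptors for degradation. It is switched on by the sterol-sensing LXR receptors rather than by SREBP, and its values differed by material at 54 µg. In control lungs its log2 ratio was 1.21, 1.26, 1.12, 0.95 and 1.10. At 54 µg of NRCWE-045 it was 1.70, 1.52, 1.47, 1.35 and 1.47, and all 5 lungs lay above every control, as 0.416% of all features did. At 54 µg of NRCWE-044 it was 1.49, 1.60, 1.25, 1.61 and 1.24, with 3 of 5 above every control. In the 54 µg lungs of NRCWE-043 it was 1.17, 1.16, 0.92, 1.34 and 1.09, with 1 of 5 above every control. NRCWE-043 did not stand apart in this way at 18 µg. There the values ran from 0.68 over a median of 1.32 to 1.42 with NRCWE-043. They ran from 1.02 over 1.31 to 1.45 with NRCWE-044, and from 1.20 over 1.33 to 1.65 with NRCWE-045. Each of these medians lay above every control.

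At 54 µg the Mylip difference from control was 0.37 ± 0.12 for NRCWE-045 (limma, unadjusted p = 0.00419, adjusted p = 1), 0.31 ± 0.12 for NRCWE-044 (unadjusted p = 0.015, adjusted p = 0.731) and 0.01 ± 0.12 for NRCWE-043. Between materials at 54 µg, the difference of NRCWE-043 from NRCWE-045 was -0.37 ± 0.12 with no overlap of the lungs, as for 0.532% of all features, and that from NRCWE-044 was -0.30 ± 0.12. Their limma adjusted p were 0.689 and 0.996. Within slides 2, 4, 5 and 6 the NRCWE-044 and NRCWE-045 lungs at 54 µg were above the control beside them by 0.25, 0.44, 0.41 and 0.36. NRCWE-043 lungs of both doses were at -0.05, -0.04 and 0.06 on slides 4, 5 and 6. A second, dim Mylip probe, well above background on 26 arrays, followed the brighter one with r = 0.22 only. It was at 0.06 ± 0.10 at 54 µg averaged over materials, where the brighter probe was at 0.23 ± 0.10. Stard4, which carries cholesterol between membranes, was at 0.07 ± 0.18.

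At 54 µg of NRCWE-045 7 of the 27 members had an unadjusted p under 0.05 in the direction of higher levels, where 2.02% of all features did, namely Mylip, Insig1, Hmgcs1, Fdft1, Cyp51, Mvd and Msmo1. Without replicate 4 of that group the count was 1. Leaving out control replicate 1 or 2 gave 3, and leaving out control replicate 5 gave 4. In the 54 µg average the count of 6 was 3, 2 and 3 without control replicates 1, 2 and 5, and 6 again without the 4 arrays high in fat markers. At 18 µg of NRCWE-043 3 members did so, Srebf2, Mvd and Cyp51 (1.65% of all features), and at 54 µg of NRCWE-044 3 did, Mylip, Insig1 and Fdft1 (3.24%). The counts were 1 at 54 µg of NRCWE-043, Srebf2 (2.52%), 0 at 18 µg of NRCWE-044 (1.62%), 1 at 18 µg of NRCWE-045, Sc5d (5.04%), and 1 in the 18 µg average, Srebf2 (1.84%). In each comparison with control in the fit of all arrays, 0 of the 27 reached that level in the lower direction. Of all features, 2.7%, 1.52% and 2.88% did so at 18 µg of the 3 materials in numerical order, and 3.11%, 2.6% and 1.91% at 54 µg. The dose averages had 2.07% at 18 µg and 2.76% at 54 µg. At 54 µg of NRCWE-044, 2 members were lower at that level with slide as a fixed block (4.73% of all features). The count was 1 with slide as a random block (4.29%), and 1 with the fixed block and without the 4 arrays (4.78%).

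Between materials at 18 µg, NRCWE-044 lungs were the lower ones. Against NRCWE-045, 3 of 27 members were higher (49.1% of all features), with a median of -0.14, and 5 were lower at an unadjusted p under 0.05, where 4.13% of all features were. These were Sc5d at -0.52 ± 0.18, Msmo1 at -0.42 ± 0.15, Cyp51 at -0.37 ± 0.16, Sqle at -0.37 ± 0.17 and Ebp at -0.26 ± 0.12, and the lowest adjusted p was 0.417. Without the 4 arrays high in fat markers the count was 1 (3.45%), and with slide as a block too it was 0 (2.29%). With the 4 arrays high in fat markers left out and slide as a block the median was -0.03. Against NRCWE-043 the comparison runs the other way, with NRCWE-043 above NRCWE-044 in 20 of 27 members (47.8% of all features), a median of 0.15, and Cyp51 at 0.38 ± 0.13, Acat2 at 0.24 ± 0.10 and Mvd at 0.30 ± 0.14 the 3 members at an unadjusted p under 0.05 (1.72% of all features). Without NRCWE-043 replicate 3 or 2 that median was 0.08. The Sc5d difference of NRCWE-043 from NRCWE-045 at 18 µg was -0.58 ± 0.18 with a limma adjusted p of 0.15, the lowest of any member in the fit of all arrays. With the 4 arrays left out and slide as a block it was 0.10 ± 0.15.

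Within the groups, many members varied together from lung to lung. With group and slide means taken out, the median Pearson r over the 325 pairs of 26 members (all but Mvd) on 34 arrays was 0.23, and 26.8% of pairs had r above 0.5. Over all pairs of 17102 named genes the median was 0.0024, and 2.54% were above 0.5. The pairs share their arrays, and r is given as a description. With only group means taken out the median was 0.20, and without the 4 arrays high in fat markers it was 0.21 with slide and 0.15 without.

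The tightest core held enzymes of several steps. Among the pairs picked for a high r, Sqle and Idi1 correlated at 0.86, Msmo1 and Sqle at 0.85 and Fdps and Lss at 0.85. Fdps and Tm7sf2 were at 0.79, and Hmgcs1 and Msmo1 at 0.79. Insig1 went with them, with a median r over the other members of 0.42. Srebf2 did not, with a median of 0.05 and r = 0.01 with Sqle, and Srebf1 had a median of -0.03. Lbr, the sterol reductase that is also a nuclear envelope protein, had a median of -0.30 and Mylip one of -0.33, while Ggps1 and Pmvk had -0.06 and -0.17. Taking out slide decided some of these: with only group means out the median was 0.12 for Lbr, -0.10 for Mylip, 0.03 for Ggps1, -0.07 for Srebf2 and 0.19 for Insig1. Leaving out the 4 arrays as well gave 0.10 for Lbr and 0.02 for Mylip. With only group means out over all arrays, Sqle and Idi1 had r = 0.85, Msmo1 and Sqle 0.88, and Fdps and Tm7sf2 0.71. Lss was then closest to Cyp51, at 0.70, and no longer to Fdps. The promoters of Mylip and Hmgcs1 printed above each hold 3 CCAAT boxes. With group and slide means out, Hmgcs1 had a median r of 0.34. Whether promoter letters go with r was not tested.

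**Figure D5:**
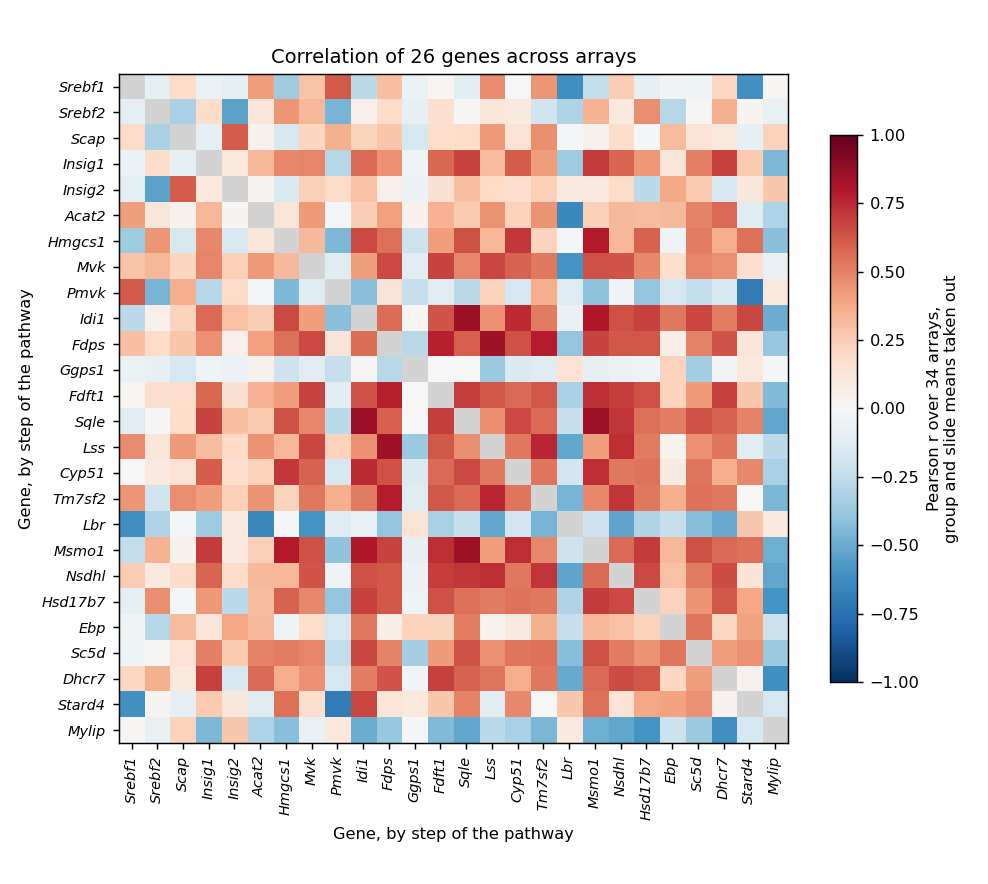
Pearson r between 26 of the genes over 34 arrays (both axes, ordered by step of the pathway), after taking out group and slide means; red is positive, blue negative, grey the diagonal. The block from Idi1 to Dhcr7 is mostly red, apart from Ggps1 and Lbr, and the Lbr, Mylip and Pmvk rows are mostly blue.

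Neighbouring lipid genes were read as whole lists. Of all features, 49.3% were above control in the 54 µg average. At an unadjusted p under 0.05 (limma), 2.86% were higher and 2.76% lower. Of 19 other genes of sterol and isoprenoid metabolism, 11 were above control at 54 µg with a median of 0.03, and 0 had an unadjusted p under 0.05 in limma. Among those with the largest differences were Cyb5r3, a cytochrome b5 reductase, at -0.24 ± 0.12, Nus1 at 0.14 ± 0.08 and Pdss1 at 0.10 ± 0.07. Of 16 fatty acid genes driven by SREBP, 9 were above control with a median of 0.05, and again 0 reached that level. Acaca and Fasn, the enzymes that start and complete fatty acid synthesis, were at 0.34 ± 0.21 and 0.24 ± 0.19, and Scd1, the desaturase, and Thrsp were at -0.30 ± 0.23 and -0.30 ± 0.57. Leaving out the 4 arrays high in fat markers gave 0.16 for Acaca, 0.08 for Fasn, -0.43 for Scd1 and -0.73 for Thrsp.

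Of 21 genes of cholesterol efflux, storage and oxysterols, 10 were above control at 54 µg with a median of -0.03, and 3 had an unadjusted p under 0.05, all higher. Over all features these shares were 49.3% and 2.86%. Msr1, a scavenger receptor of macrophages, was at 0.53 ± 0.15 (limma, unadjusted p = 0.00162, adjusted p = 0.55), Abcg1, an LXR-driven cholesterol exporter, at 0.32 ± 0.12 (0.00835 and 0.724) and Lipa, the lysosomal lipase, at 0.24 ± 0.10 (0.0205 and 0.806). Ch25h, which makes 25-hydroxycholesterol, was at 0.40 ± 0.23. Without the 4 arrays high in fat markers Msr1 was at 0.53, Abcg1 at 0.37 and Lipa at 0.26. Of markers of lipid-laden macrophages, 7 of 7 were above control at 54 µg and a median of 0.40, and their mean per array was 0.41 to 0.62 at 54 µg of NRCWE-044 against -0.10 to 0.11 in controls. At 54 µg of NRCWE-043 it was 0.095 to 1.03 and of NRCWE-045 0.10 to 0.97, and both overlapped the controls. Of monocyte and interstitial macrophage markers 9 of 9 tested were above control with a median of 0.18, of lymphocyte markers 7 of 7 with 0.48, and of endothelial markers 0 of 7 with -0.35. The mean of alveolar type 2 markers lay at 0.03, -0.08 and 0.04 in the lungs at 54 µg of the 3 materials, in numerical order. These marker lists were read over all arrays, those high in fat markers included. The part of these cell types in the member values was not tested.

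Outside the members, the 10 named genes whose values followed the member mean most closely, with group means taken out over 34 arrays, were Acaa1a at r = 0.83, Scp2 at 0.82, Fabp5 at 0.81, Aldoc at 0.78, Cd177 at 0.77, Osbpl10 at 0.77, Il33 at 0.77, Mrpl16 at 0.76, Muc20 at 0.76 and Wbp1 at 0.76. Scp2 is a sterol carrier protein, Acaa1a a peroxisomal thiolase and Fabp5 a fatty acid binding protein that is also on the list of lipid-laden macrophage markers. Without the 4 arrays high in fat markers these r ran from 0.61 for Muc20 to 0.80 for Scp2. With slide means also taken out they ran from 0.69 to 0.87 over all arrays, and from 0.56 for Osbpl10 to 0.82 for Scp2 without the 4. These r share the arrays and the choice of the highest, and are a description.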

How the data were processed

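The authors scanned 34 two-colour arrays and extracted spot intensities with Agilent Feature Extraction 11.0.1.1, per the file headers. Flags for irregular spots and for spots well above background come from the same deposited scanner output. The authors' deposited series table of log2 ratios served as an alternative; how it was made is not given in the sources used here. Median spot intensities were corrected (normexp, offset 50) and loess-normalized in limma 3.58.1 (R 4.3.3), with control and irregular spots at weight 0. Features detected in Cy5 (well above background) on 3 or more arrays were fitted as 7 group means with empirical Bayes, and p-values were adjusted by Benjamini-Hochberg over 29316 features. Scripts were tested on simulated data. The number of arrays limits the precision, and 50.8 to 68.5% of probes were well above background in Cy5.

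Replicates were numbered in deposit order, and slides were read from the scanner files. Members and lists were chosen with earlier results of these data known. Named genes were all members, the 4 genes with the largest 54 µg difference per further list and the 10 genes closest to the member mean. Of these, 1 gene of a further list is not reported here. Alternatives changed background correction, normalization, source table, slide, filter, probe choice, groups fitted and array weights, or left out each array. Leaving out the 4 arrays high in fat markers was added after seeing the data.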

Additional observations from a re-analysis of the deposited data

Results flagged for a closer look

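Among 168 groups of 4 to 10 arrays, 15 held an array set apart from the rest of its group by Dixon's criterion, and chance sets apart about 1 in 20 groups. Of these, 5 were genes of replicate 4 of NRCWE-045 at 54 µg, the array with a fat marker mean of 2.51. Its log2 ratio was 0.4632 for Scap (nearest other lung 0.245), 0.1148 for Msmo1 (-0.5301), -0.6346 for Hsd17b7 (-1.2998), 1.2758 for Ebp (0.9483) and 1.3721 for Sc5d (0.6451).

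At 54 µg of NRCWE-043, replicate 1 stood apart with a member mean of 0.2067 and Fdps at -0.054, and replicate 4 with Lbr at -0.4544 and Dhcr7 at -1.6571. Replicate 4 of NRCWE-044 at 54 µg was low in Acat2 at -1.1924 and in Dhcr7 at -1.1442. At 18 µg of NRCWE-044, replicate 5 was high in Acat2 at -0.6182 and replicate 3 in Sqle at -1.3653. In control lungs, Acat2 was low in replicate 2 at -1.154 and Insig2 in replicate 5 at -0.4843.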

How the results depend on the processing

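Of the values set against an alternative, 6716 kept their direction and side of the threshold or stayed close, 93 moved, 5 reversed and 1 became significant; the causes were not tested. All 5 reversals concern NRCWE-045 at 18 µg against control without the 4 arrays high in fat markers, where 1 array is left and assumed to vary like the other groups. Tm7sf2 was then -0.0469, and with slide as a block -0.0654, Idi1 -0.1367, Sqle -0.0815 and Sc5d -0.1953. Without the 4 arrays and with slide as a block, 1 member was called at 54 µg of NRCWE-043, Srebf2 at 0.4054, and the member median was 0.0139 for NRCWE-045 at 18 µg against control, 0.1225 for NRCWE-043 and -0.0279 for NRCWE-044 against NRCWE-045 at 18 µg. The median r between members was 0.2294 with slide means out, 0.1483 without the 4 arrays and 0.213 with both, against 0.1963.

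Counts of all features called by limma varied far more. Without the 4 arrays, and then with slide as a block too, they were 63 and 64 at 18 µg of NRCWE-045 against control, 43 and 47 at 18 µg over materials, 58 and 62 for 54 against 18 µg of NRCWE-045, 46 and 54 for that step over materials, 3 and 13 at 54 µg of NRCWE-044, each against 0. They were 61 and 68 for NRCWE-044 against NRCWE-045 at 18 µg (0), 6 and 7 for NRCWE-043 against NRCWE-044 at 18 µg (3), 64 and 63 for NRCWE-043 against NRCWE-045 at 18 µg (126), and 6 and 27 for that pair at 54 µg (1). With both changes they were 39 at 54 µg of NRCWE-043, 3 at 54 µg over materials, 1 for NRCWE-043 against NRCWE-044 and 2 for NRCWE-044 against NRCWE-045 at 54 µg.

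With slide as a fixed block, counts were 1 at 54 µg of NRCWE-044 and of NRCWE-045, 0 and 21 for NRCWE-043 against NRCWE-044 and NRCWE-045 at 18 µg, and 1 for NRCWE-043 against NRCWE-044 at 54 µg. As a random block (correlation 0.2944) they were 8 at 54 µg of NRCWE-044, 4 at 54 µg over materials, 11 and 397 for NRCWE-043 against NRCWE-044 and NRCWE-045 at 18 µg, and 22, 4 and 6 for the 3 pairs at 54 µg. Array weights gave 31 at 54 µg of NRCWE-044, 1 for the dose step of NRCWE-044 and 3 at 54 µg over materials. They gave 6 and 0 for NRCWE-043 against NRCWE-044 and NRCWE-045 at 18 µg, and 2, 6 and 5 for the pairs at 54 µg. Fitting the compared groups alone gave 5 for the lower and 1 for the higher dose of NRCWE-044, and 0 for NRCWE-043 against NRCWE-045 at either dose. The scanner's processed signals gave 1 and 3 for NRCWE-043 against NRCWE-044 and NRCWE-045 at 18 µg, and 0 and 1 for NRCWE-043 and NRCWE-044 against NRCWE-045 at 54 µg. The deposited series table and the mean of all probes each gave 1 for NRCWE-043 against NRCWE-044 at 18 µg, and no background correction gave 206 for NRCWE-043 against NRCWE-045 at 18 µg.

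Leaving out each array in turn gave 0 to 110 features at 18 µg of NRCWE-045 (member median 0.11 to 0.1902), 0 to 3 at 54 µg of NRCWE-043, 0 to 13 of NRCWE-044, 0 to 6 at 54 µg over materials, 0 to 3 and 0 to 21 for the dose steps of NRCWE-044 and NRCWE-045, 0 to 34, 0 to 428 and 0 to 133 for the pairs at 18 µg, and 0 to 3 for NRCWE-043 against NRCWE-045 at 54 µg.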
